A study of Mus musculus with 5 samples.

Results

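The 9 genes described here, Myc, Mycn, Max, Mxd1, Mxi1, Mxd3, Mxd4, Mnt and Mlx, encode the proteins of the MYC, MAX and MXD network. The members were chosen with earlier results of these data known, and their probe sets were taken by gene symbol. All probe sets whose annotation gives exactly 1 symbol equal to a member were taken, which gave 21 of the 45101 probe sets on the array and 9 of the 18194 genes tested. For each gene the probe set with the highest mean over all arrays leads, and the other probe sets are given beside it. RNA came from bone marrow stem and progenitor cells of C57BL/6 mice, with 3 arrays from control rtTA mice and 2 from MSI2-inducible mice. The control mice carry rtTA, the reverse tetracycline transactivator that switches on inducible transgenes when doxycycline is given. The sources used here do not give the ages of the mice, the promoter behind the transgene, whether MSI2-inducible mice also carry rtTA, or whether and for how long doxycycline was given. Each sample is described as Sca1-positive and Kit-positive (LSK), whereas the series text describes Sca1-negative cells (LK), so the gate is uncertain. Whether the arrays of one group stand for different mice is not stated, so the p-values below rest on a spread between arrays that may be technical.

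MYC proteins bind DNA only as pairs with MAX, through a basic helix-loop-helix leucine zipper, and such pairs activate genes for growth, ribosome production and metabolism at the E-box sequence CACGTG. MXD proteins and MNT compete for the same partner and the same E-box, and they repress transcription by recruiting the SIN3 corepressor with histone deacetylases. MLX is a MAX-like partner for MXD1, MXD4, MNT and the glucose-responsive Mondo proteins. In blood formation MYC promotes exit of stem cells from the niche and proliferation of progenitors, and MXD1 is known to rise as myeloid cells mature and stop dividing.

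The E-box is the sequence that ties these genes together, so the members' own promoters were searched for it. RefSeq promoters (GRCm38.p6, 250 bases before to 50 bases after the start site) were matched by symbol for 8 members, all but Myc, with 3 promoters for Mxi1 and 10 in all. CACGTG, which reads the same on both strands, was found once each in the promoters of Mxd4, Max, Mnt and Mlx, and not in those windows of Mycn, Mxd1, Mxd3 and Mxi1. Of all 32851 promoters of this length 7.15% hold it, and of 14453 tested genes with a promoter 10.2% hold it in at least 1. GC content of the member promoters ranged from 55.0% to 76.7%, and these matches describe letters, not bound sites. The upstream bases are shown for Mxd4 and Max, which had the lowest p of a lower and of a higher member in the group comparison, and a window around the E-box for Mnt and Mlx; capitals mark CACGTG.
Mxd4 (chr5:34187711-34187960, minus strand): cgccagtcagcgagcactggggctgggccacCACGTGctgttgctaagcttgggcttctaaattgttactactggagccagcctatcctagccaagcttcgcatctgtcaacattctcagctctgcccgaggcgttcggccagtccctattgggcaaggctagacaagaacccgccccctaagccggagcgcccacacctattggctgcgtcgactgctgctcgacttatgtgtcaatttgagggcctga
Max (chr12:76962246-76962498, minus strand): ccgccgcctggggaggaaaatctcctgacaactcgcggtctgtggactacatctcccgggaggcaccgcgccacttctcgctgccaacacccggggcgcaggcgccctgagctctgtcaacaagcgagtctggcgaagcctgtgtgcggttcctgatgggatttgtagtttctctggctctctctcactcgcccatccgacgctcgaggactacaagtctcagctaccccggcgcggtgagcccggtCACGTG
Mnt (chr11:74830774-74830833, plus strand): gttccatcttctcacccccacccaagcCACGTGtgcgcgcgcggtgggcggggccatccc
Mlx (chr11:101087223-101087282, plus strand): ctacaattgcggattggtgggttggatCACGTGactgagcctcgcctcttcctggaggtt
The E-box of Mxd4 began 219 bases before the start site, that of Mnt 123 and that of Mlx 40 bases before it. In Max it began 3 bases before the start site and ran across it.

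Values are log2 of the deposited intensities, differences are MSI2-inducible minus control, and groups were compared with limma. The median of all probe sets lay at 5.57, and every leading probe set of the network lay above it. Kit, the receptor used for sorting, lay between 8.80 and 9.66 over the 5 arrays. Of 11 stem and progenitor genes with a value, the brightest were Hlf (10.62 to 11.18) and Cd48 (10.58 to 10.89), 8 were lower on average in MSI2-inducible arrays and 7 were lowest in MSI2-inducible replicate 1. Their summed intensity was 11160 to 12795 in control arrays, 9635 in MSI2-inducible replicate 1 and 12422 in replicate 2. Slamf1 (-1.27) and Mecom (-0.58), 2 stem cell genes named after their values were seen, lay under all control arrays in both MSI2-inducible arrays. In this list the groups did not overlap for 2 of 11 genes (18.2%), near the 18.7% of all genes.

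Marker genes of other blood cells differed between the arrays too. Mature neutrophil markers, led by S100a9 and S100a8, had a summed intensity over 15 of 18 listed genes of 16279 to 30163 in control arrays, 72911 in MSI2-inducible replicate 1 and 12877 in replicate 2, and all 15 were highest in replicate 1. Erythroid markers, led by Car2 and Car1, summed to 10803 to 11696 in control arrays and to 17010 and 13606 in MSI2-inducible replicates 1 and 2, and 10 of 12 were highest in replicate 1. On average 10 were higher and 2 lower, Gata1 (-0.53) and Alas2 (-0.03). The groups did not overlap for 5 of 12 (41.7%, against 18.7% of all genes), with Gata1 under all control arrays. Car2, the brightest, overlapped (0.14). Megakaryocyte markers, led by Pf4 and Vwf, had a lower sum in both MSI2-inducible arrays (1169 and 1256) than in control arrays (1790 to 2201). Of 8 such genes with a value, 6 were lower on average and 2 higher. Only Pf4 and Vwf, 2 of 8, did not overlap between groups (25%, against 18.7% of all genes). Sums in MSI2-inducible replicate 1 were also high for B cell markers, led by Ighm and Vpreb1 (4732, against 1417 in replicate 2 and 1293 to 2300 in control arrays), and for macrophage and dendritic markers, led by Ccr2 and Vcam1 (1392, against 644 and 728 to 755). Of 9 B cell genes with a value, 5 were highest in replicate 1 and 6 had a mean below the array-wide median. Of 11 macrophage and dendritic genes, 7 were highest there and 7 had a mean below that median. Vpreb1 lay at 9.03 in replicate 1 and at 8.87 in replicate 2. Sums in both MSI2-inducible arrays lay within the control range for granulocyte and monocyte progenitor markers, led by Mpo and Ctsg (14614 to 25025 in control arrays), for T and NK cell markers, led by Nkg7 and Thy1 (1131 to 1541), and for mast cell, basophil and eosinophil markers, led by Gata2 and Cpa3 (1364 to 2920). Of the T and NK cell genes 7 of 10, Cd3e among them (2.22 to 2.63), had a mean below the array-wide median, while Nkg7 (8.97 to 9.92) and Thy1 (8.11 to 9.17) lay well above it. The part of these cell types in the values below was not tested. In sorted cells measured in bulk, a change in the share of a cell type and a change in RNA per cell cannot be told apart. The 3' minus 5' signal of Gapdh, a sign of RNA quality, was 2.38 ± 0.23 (SD, n = 3) in control arrays and 2.22 in each MSI2-inducible array.

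No member passed the test between genotypes. At a limma adjusted p of 0.05, 0 of 9 members passed, against 0.022% of all genes (4 of 18194), and adjusted p over the members ran from 0.835 to 0.985. Mxd4, at an unadjusted limma p of 0.0148, was the 1 member under 0.05, where 5.64% of all genes were. Control and MSI2-inducible arrays were fully separated for 3 members, a share of 33.3% against 18.7% of all genes. Mxd4 was separated on the lower side, as were 9.39% of all genes, and Max and Mxd1 on the higher side, as were 9.27%. MSI2-inducible replicate 1 had the highest summed intensity of neutrophil, erythroid and B cell markers. Without it, 4 members were separated in this way (Max, Mxd1, Mxd4 and Mlx), against 47.5% of all genes. The median difference over the 9 members was 0.05, against 0.00 over all genes, with 5 members higher (55.6%, against 50.4% of all genes) and 4 lower. Regardless of sign, their median difference was 0.37, against 0.18 over all genes, which were not matched to the members by level. The range over the 5 arrays was also above the median of all genes (0.65) for 7 of 9 members.

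**Figure D1:**
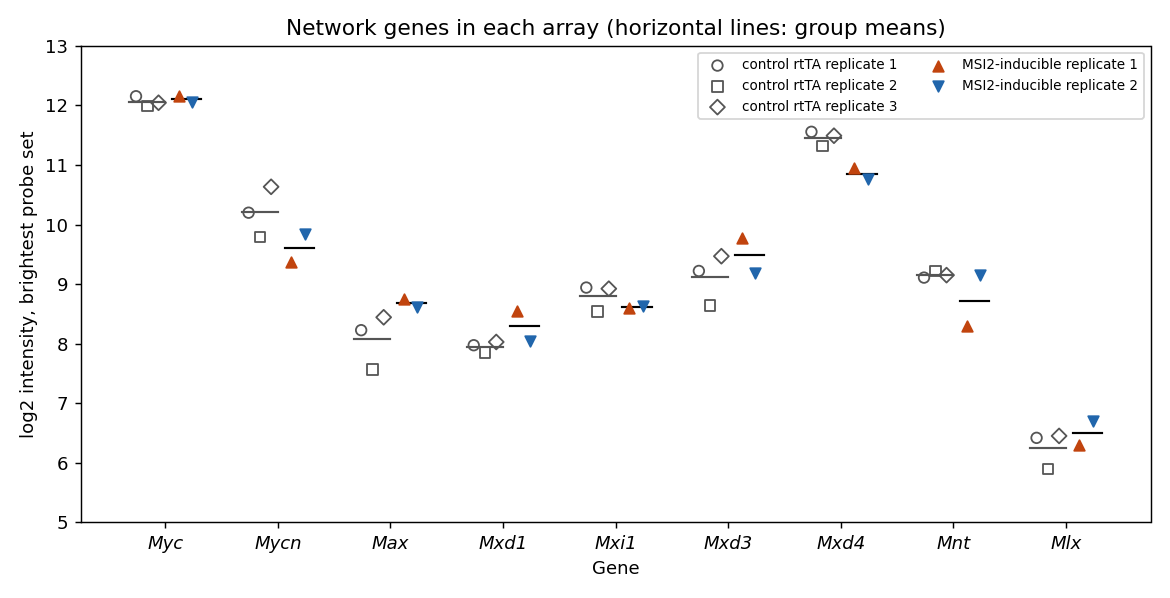
Log2 intensity of the brightest probe set of each network gene (y axis) in the 3 control rtTA arrays (open grey symbols) and the 2 MSI2-inducible arrays (filled), with group means as horizontal lines. Myc spans 11.99 to 12.16 over all 5 arrays, both MSI2-inducible arrays of Mxd4 lie under the control arrays, and Mnt is low in MSI2-inducible replicate 1 alone; probe sets of different genes are not on a common scale.

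Of the MYC proteins, Myc, the broadly expressed family member, was measured by 1 probe set and was nearly level across the arrays. Its log2 intensity was 12.16, 11.99 and 12.05 in control replicates 1, 2 and 3 and 12.16 and 12.06 in MSI2-inducible replicates 1 and 2. MSI2-inducible replicate 1 was level with the highest control array and replicate 2 lay among the control arrays, and the range over 5 arrays, 0.17, was the narrowest of the 9 members and under the median range of all genes (0.65). The difference was 0.05 (SE 0.17), with a 95% interval of -0.36 to 0.45 and a limma adjusted p of 0.985. That interval leaves room for a change of about 1.37-fold upward or 0.779-fold downward in mRNA, and says nothing of the MYC protein.

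Mycn, the family member that overlaps with Myc in stem cells, was the most variable of the 9 genes, with a range of 1.26 over the arrays. Its brightest probe set lay at 10.20, 9.79 and 10.63 in control replicates 1, 2 and 3, against 9.37 and 9.84 in the MSI2-inducible pair. MSI2-inducible replicate 1 was lowest, while replicate 2 lay just above control replicate 2, so the groups overlapped. The difference was -0.60 (SE 0.30, 95% interval -1.34 to 0.14, limma adjusted p 0.912). The second Mycn probe set gave 9.26, 8.43 and 9.40 in control and 7.88 and 8.76 in MSI2-inducible arrays, a difference of -0.71 (SE 0.41). Both probe sets put the 5 arrays in the same order, with control replicate 3 highest and MSI2-inducible replicate 1 lowest. The third probe set, at 3.76 to 5.03 and under the median of all probe sets, put them in another order and differed by -0.33. Without MSI2-inducible replicate 1 the Mycn difference was -0.37, and without control replicate 2 it was -0.81.

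Max encodes the partner that MYC, MXD and MNT proteins share. Its 1 probe set read 8.23, 7.57 and 8.44 in control replicates 1, 2 and 3, and 8.74 and 8.62 in MSI2-inducible replicates 1 and 2. Both MSI2-inducible arrays lay above every control array, the nearer one by 0.17, while the control arrays themselves spanned 0.88. The difference was 0.60 (SE 0.29, 95% interval -0.11 to 1.32), a linear ratio of 1.52, with a limma adjusted p of 0.912. Control replicate 2 was the lowest of the 5 arrays for Max, and without it the difference was 0.35.

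The MXD repressors did not move as a group: Mxd4 and Mxi1 were lower on average and Mxd1 and Mxd3 higher, none of them past the test. Mxd4 had the smallest p of the network. Its leading probe set lay at 11.56, 11.32 and 11.49 in control replicates 1, 2 and 3, against 10.95 and 10.76 in the MSI2-inducible pair. The gap between the lowest control array and the higher MSI2-inducible array, 0.37, exceeded the range within either group (0.24 and 0.19). The difference was -0.60 (SE 0.18, 95% interval -1.04 to -0.17), a linear ratio of 0.659, with a limma adjusted p of 0.835. It ran from -0.70 to -0.51 with any 1 array left out, so no single array carried it. The other Mxd4 probe sets showed less: those read at 7.10 to 8.05 and at 6.61 to 7.26 each differed by -0.23, and one near the floor (3.56 to 4.15) by 0.02. With the mean of all 4 probe sets the Mxd4 difference was -0.26.

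Mxd1, the repressor tied to terminal myeloid differentiation, read 7.97, 7.85 and 8.03 in control replicates 1, 2 and 3 and 8.55 and 8.05 in MSI2-inducible replicates 1 and 2. Both MSI2-inducible arrays were above the control arrays, but replicate 2 by only 0.02. The difference was 0.35 (SE 0.21, 95% interval -0.17 to 0.87, limma adjusted p 0.913). A second probe set showed the same shape, with 7.40, 7.05 and 7.34 in control arrays against 8.48 in MSI2-inducible replicate 1 and 7.46 in replicate 2. The third Mxd1 probe set read 6.93 in control replicate 3 and in both MSI2-inducible arrays, and 6.74 and 6.23 in control replicates 1 and 2. MSI2-inducible replicate 1 was thus highest in the 2 brighter probe sets, and it is the array in which all 15 neutrophil and 10 of 12 erythroid markers were highest. Lcn2, a neutrophil granule gene named after its values were seen, lay there at 11.47 against 7.05 to 8.95 in control arrays and 6.94 in MSI2-inducible replicate 2. The part of those markers in the Mxd1 values was not tested. Without MSI2-inducible replicate 1 the Mxd1 difference was 0.10, and without replicate 2 it was 0.60.

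Mxd3, the MXD member associated with dividing cells, read 9.22, 8.64 and 9.47 in control replicates 1, 2 and 3 and 9.78 and 9.19 in MSI2-inducible replicates 1 and 2. The groups overlapped, and the difference of 0.37 (SE 0.32, limma adjusted p 0.931) was smaller than the control SD of 0.42. It was 0.07 without MSI2-inducible replicate 1 and 0.14 without control replicate 2. The other probe sets went both ways: one differed by -0.18, and one with a mean below the array-wide median differed by 0.63, with 5.54, 5.23 and 4.96 in control against 5.88 and 5.87 in MSI2-inducible arrays.

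Mxi1, also called Mxd2, was read by probe sets that disagreed. The leading one lay at 8.94, 8.54 and 8.92 in control replicates 1, 2 and 3, against 8.60 and 8.63 in MSI2-inducible arrays, a difference of -0.18 (SE 0.20, limma adjusted p 0.947). The other lay at 8.30, 8.67 and 8.62 in control arrays, 9.43 in MSI2-inducible replicate 1 and 8.52 in replicate 2, a difference of 0.44 (SE 0.32). The direction for Mxi1 therefore depended on the probe set, and the mean of both differed by 0.13.

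**Figure D2:**
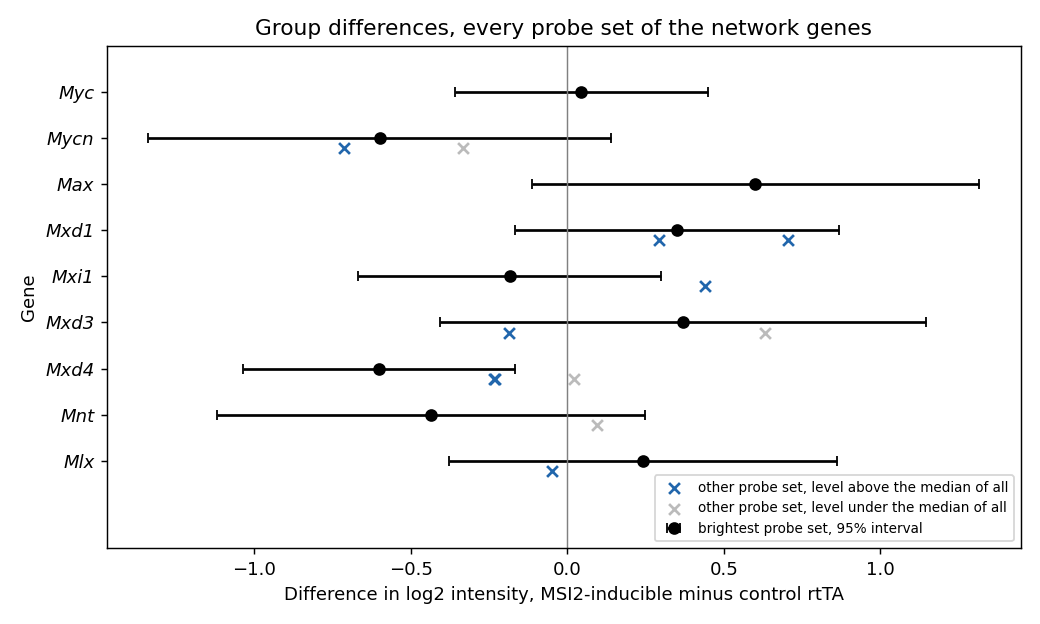
Difference in log2 intensity between MSI2-inducible and control rtTA arrays (x axis) for each network gene, with the brightest probe set as a black point with its 95% interval from limma (not adjusted for multiple tests) and the gene's other probe sets as crosses, grey where their mean level lies under the median of all probe sets. Mxd4 alone has an interval clear of 0 (-1.04 to -0.17), and 2 of its crosses coincide at -0.23; for Mxi1, Mxd3, Mxd4, Mnt and Mlx at least 1 cross lies on the other side of 0 from the leading point.

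Mnt, the repressor that is present in resting and dividing cells alike, was steady in 4 of the 5 arrays. It read 9.11, 9.22 and 9.15 in control replicates 1, 2 and 3, 8.29 in MSI2-inducible replicate 1 and 9.15 in replicate 2. The control arrays spanned 0.11, and MSI2-inducible replicate 2 lay within them, so the group difference of -0.44 (SE 0.28, limma adjusted p 0.916) came from 1 array. Without that array the difference was -0.01, and without MSI2-inducible replicate 2 it was -0.87 (limma adjusted p 0.266). The second Mnt probe set was dim, at 5.09 to 5.34, and was highest where the first was lowest.

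Mlx, the MAX-like partner of Mondo proteins, read 6.42, 5.89 and 6.45 in control replicates 1, 2 and 3 and 6.29 and 6.70 in MSI2-inducible replicates 1 and 2. The groups overlapped, and the difference was 0.24 (SE 0.25, 95% interval -0.38 to 0.86, limma adjusted p 0.946). A second Mlx probe set of similar brightness differed by -0.05. It was highest in control replicate 2, the array in which the first was lowest.

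Across the leading probe sets of the network 2 arrays took extreme positions more often than the others. The same counts were not taken over all genes, so they do not set the network apart from other genes. MSI2-inducible replicate 1 lay farther from the control mean than replicate 2 for 7 of 9 members, all but Mxd4 and Mlx, with a mean absolute deviation of 0.50 against 0.27. Both MSI2-inducible arrays lay on the same side of the control mean for 8 members, the exception being Myc. In replicate 2, however, both Myc (-0.004) and Mnt (-0.007, counted among the 8) were level with that mean. Control replicate 2 was the lowest of all 5 arrays for 6 of 9 members (Myc, Max, Mxd1, Mxi1, Mxd3 and Mlx), and neutrophil markers were lower in it (summed intensity 16279) than in the other control arrays (29875 and 30163). In dimmer probe sets of Mycn, Mxd3, Mxd4 and Mlx, however, control replicate 2 was the highest array.

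**Figure D3:**
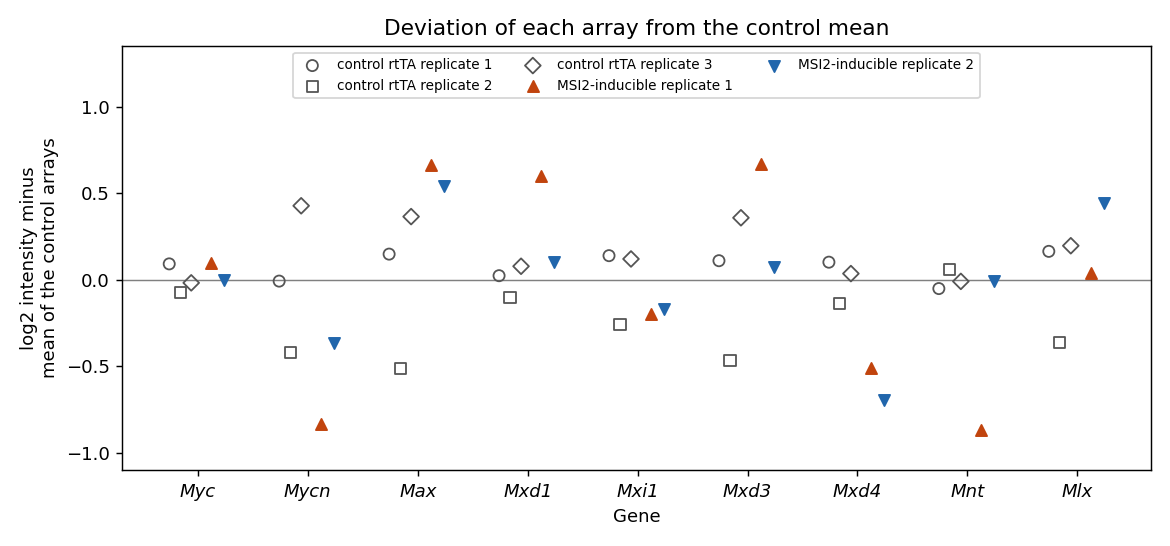
Log2 intensity of each network gene in each array minus the mean of the 3 control arrays (y axis), for the brightest probe sets. MSI2-inducible replicate 1 (triangles pointing up) lies far from 0 for Mycn, Max, Mxd1, Mxd3 and Mnt, MSI2-inducible replicate 2 (pointing down) lies farther out for Mxd4 and Mlx, and control replicate 2 (squares) is lowest for 6 genes.

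**Figure D4:**
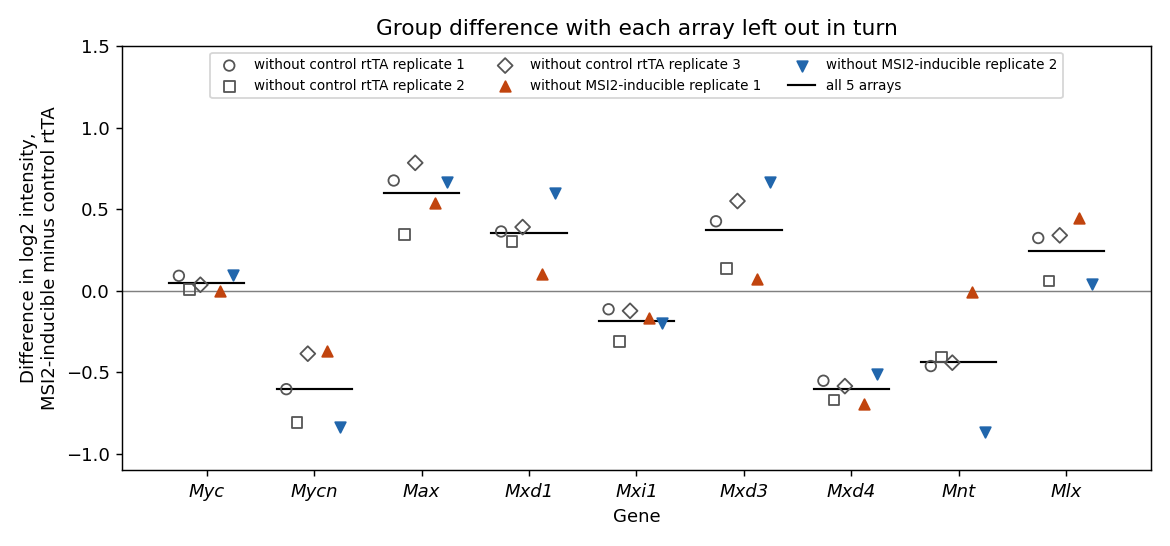
Difference in log2 intensity between MSI2-inducible and control arrays (y axis) with all 5 arrays (line) and with each array left out in turn (symbols). Mxd4 stays between -0.70 and -0.51, Mnt moves from -0.87 to -0.01 and Mxd1 from 0.10 to 0.60.

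The genes whose pattern over the 5 arrays was most like that of Myc and Mycn were found by the root mean square distance between log2 values centred on each gene's mean. For Myc these were Ceacam12, Tmem102 and Troap, at distances of 0.019 to 0.022. A flat pattern is common: 1390 genes lay within 0.1 of Myc. For Mycn, Zfp784 (0.056), Kat5 (0.082) and Hfe (0.086) were nearest, and 6 genes lay within 0.1. With 5 arrays these distances describe likeness only.

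Partners and cofactors of the network were listed separately, and 21 of 24 had a value. None passed the test (limma adjusted p of at least 0.835), 2 were higher at an unadjusted limma p under 0.05 and 0 lower (2.87% and 2.77% of all genes), and the groups did not overlap for 5 (23.8%, against 18.7% of all genes). The median difference was 0.07, but it was -0.21 without MSI2-inducible replicate 2 and 0.30 without replicate 1. Kat2a, the histone acetyltransferase GCN5 that MYC recruits, differed by 0.62, with 8.88, 8.64 and 8.54 in control and 9.34 and 9.27 in MSI2-inducible arrays. Mycl, the third MYC family gene, differed by 0.47 at a level under the median of all probe sets (4.41 to 5.07). Zbtb17, which encodes the MYC partner MIZ1, differed by -0.56, and Kat5, the acetyltransferase TIP60, by -0.54. Sin3b, a corepressor that MXD proteins and MNT recruit, lay at 11.52 to 11.58 in control and at 11.23 and 11.29 in MSI2-inducible arrays. Its difference was -0.29 (limma adjusted p 0.913). The other SIN3 and histone deacetylase genes of the list overlapped between groups: Sin3a (-0.21), Hdac1 (0.13), Hdac2 (0.03) and Hdac3 (0.11). Sin3b and these genes were named after their values were seen.

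Genes that govern MYC protein turnover gave 17 of 18 values and a median difference of 0.01, which was -0.13 without MSI2-inducible replicate 2 and 0.11 without control replicate 1. None passed the test, 1 was higher at an unadjusted limma p under 0.05 and 0 lower (2.87% and 2.77% of all genes), and the groups did not overlap for 4 (23.5%, against 18.7% of all genes). Pim3, a kinase of the family that stabilises MYC, differed by 0.94, from 10.68, 10.64 and 9.87 in control to 11.73 and 10.93 in MSI2-inducible arrays. Fbxw7, the ubiquitin ligase subunit that marks MYC for degradation, differed by 0.54 (9.33, 9.67 and 9.15 against 10.10 and 9.75). Plk1 (-0.30) and Pim2 (-0.26) had the lowest differences of the list.

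Genes that MYC is known to activate had a median difference close to that of all genes. Of 48 listed genes 47 had a value, 27 were higher and 20 lower, and the median difference was 0.03, against 0.00 over all genes; it was -0.0024 without control replicate 2 and 0.09 without control replicate 1. None passed the test, 2 were higher at an unadjusted limma p under 0.05 and 0 lower (2.87% and 2.77% of all genes), and the groups did not overlap for 14 (29.8%, against 18.7% of all genes). Eif4ebp1, an inhibitor of cap-dependent translation, differed by 0.77 and was highest by far in MSI2-inducible replicate 1 (9.98, against 8.70 in replicate 2 and 8.51 to 8.61 in control arrays). Eif4e, the cap-binding factor, differed by 0.61 and was higher in both (9.67 and 10.05 against 9.07 to 9.35). Tert, the telomerase subunit, differed by -0.61 and Ppan, a ribosome biogenesis factor, by -0.38.

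Genes that MYC is known to repress had a median difference of 0.16 over all 15 listed, 9 higher and 6 lower. That median was 0.34 without MSI2-inducible replicate 2 and 0.11 without replicate 1, 0.28 without control replicate 3, 0.58 with low values left out and 0.32 with probe sets taken singly. None passed the test, 5 were higher at an unadjusted limma p under 0.05 and 0 lower (2.87% and 2.77% of all genes), and the groups did not overlap for 7 (46.7%, against 18.7% of all genes). Klf6, a stress-responsive transcription factor, differed by 1.41, with 9.95, 10.86 and 9.85 in control against 11.74 and 11.53 in MSI2-inducible arrays (limma adjusted p 0.679). Gadd45b, a stress sensor, differed by 1.43, which rested on MSI2-inducible replicate 1 (10.16, against 6.89 to 7.45 in the other 4 arrays). Of the cyclin-dependent kinase inhibitors in the list, Cdkn1a differed by 1.23 and did not overlap between groups, whereas Cdkn1b (0.16), Cdkn1c (-0.13), Cdkn2b (-0.04) and Cdkn2c (-0.18) overlapped; these 5 were named after their values were seen. Foxo3 (-0.34) and Ndrg2 (-0.36) had the lowest differences. Several of these are also known to respond to stress, and immediate early and heat shock genes, of which Klf6 is 1, were higher in the same arrays. Of that list 21 of 22 had a positive difference, 14 at an unadjusted limma p under 0.05 (2.87% of all genes) and 0 past the test. Because the lists were chosen with earlier results of these data known, these counts describe the list and are not an independent result. The heat shock genes Hspa1a (4.36, limma adjusted p 0.361) and Hspa1b (3.85, limma adjusted p 0.475) had the highest differences of that list, and Egr3 (-0.04) was its 1 negative. Relative to control means, that list had a median of 1.05 in MSI2-inducible replicate 1 and 0.76 in replicate 2, and control arrays ranged from -0.18 to 0.28. Their summed intensity was 31685 to 45518 in control and 56113 and 64174 in MSI2-inducible arrays, and their part in the values of Klf6 and its list was not tested.

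Among 4 genes known as targets of Mondo and MLX complexes, the median difference was -0.06, and its sign was not stable. It was -0.42 without control replicate 2, 0.08 without control replicate 1, 0.02 without control replicate 3 or with the replicate block, 0.05 with probe sets averaged and -0.24 with array weights. None of the 4 passed the test. Arrdc4, an arrestin family member that responds to glucose through these complexes, differed by -1.76 (limma adjusted p 0.750). It was the 1 gene of the list at an unadjusted limma p under 0.05, where 2.77% of all genes were lower. It was also the 1 gene whose groups did not overlap (25%, against 18.7% of all genes). It lay at 8.30, 8.35 and 8.44 in control and at 5.78 and 7.43 in MSI2-inducible arrays, below the control arrays in both. Txnip, the other well-known arrestin target, differed by -0.13 and lay at 10.85 and 10.87 in MSI2-inducible arrays, inside the control range of 10.17 to 11.47. Pklr (0.62) and Klf10 (0.01) overlapped between groups.

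**Figure D5:**
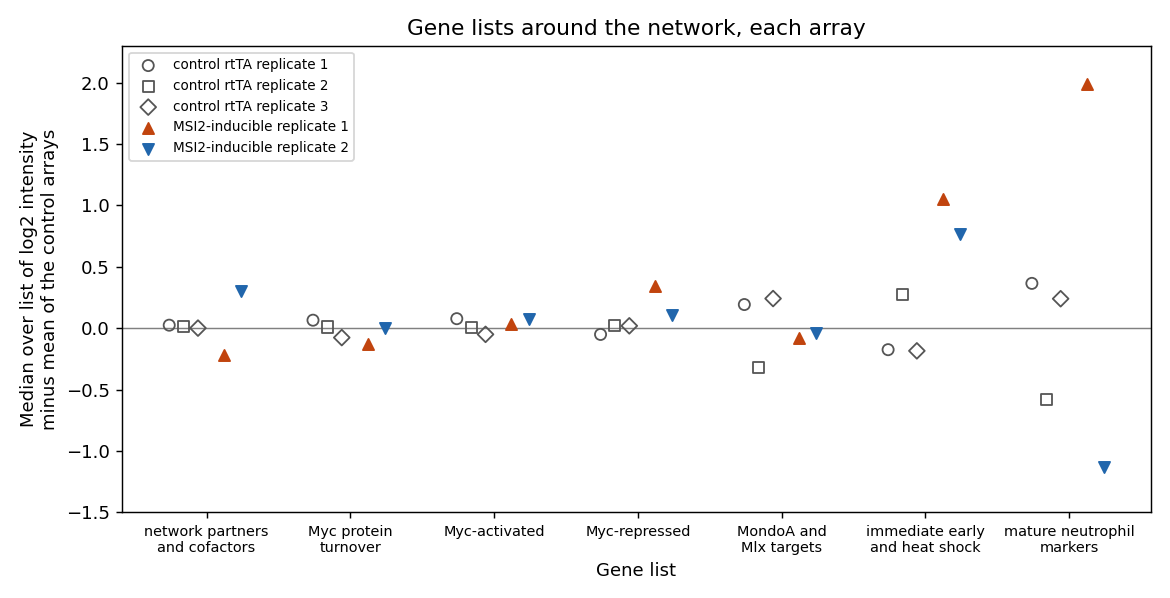
Median over each gene list of log2 intensity minus the mean of the control arrays (y axis) in each array. MYC-activated genes lie near 0 in all 5 arrays, immediate early and heat shock genes are higher in both MSI2-inducible arrays, and mature neutrophil markers are high in MSI2-inducible replicate 1 and low in replicate 2.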

How the data were processed

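The deposited intensities are on a linear scale and were normalized between arrays by the authors; the submitters' processing notes list RMA, affy and R 2.11.0, without saying how RMA's log values were made linear. Per the labels' protocols, RNA was amplified linearly before biotin labelling. Array medians lay between 46.4 and 48.3 intensity units. The log2 was taken with no pseudocount, and 64 control probe sets were left out. Of 45101 probe sets, 34958 had 1 symbol in the platform annotation, 932 had several and the rest were unnamed here; symbols were updated by Entrez ID (GRCm38.p6 gene table, 34754 matched). Each of 18194 genes was represented by its brightest probe set.

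The test was limma's moderated comparison (version 3.58.1, R 4.3.3, with lmFit, eBayes and a group term alone), two-sided, adjusted by Benjamini-Hochberg over all genes. The fit was tested on simulated data with planted differences larger than that of any member. That simulation does not show what the fit could detect at the size of the members' differences. The single probe sets were fitted together over all probe sets, and their SE come from that fit. RNA quality values come from control probe sets. The number of arrays limits precision. Members and lists were chosen with earlier results of these data known. Named beyond the members were, per list, the 2 highest and 2 lowest differences (fewer where a list held fewer of one sign) and any past the test, and for marker lists the 2 brightest genes. Kit and Cd3e, defining markers, were added after their values were seen, as were others where stated. Other settings tried were the mean of probe sets or each on its own, no _x_at or _s_at probe sets, a filter on low values, a further quantile normalization, trend and robust fitting, array weights, a replicate block, left-out arrays and a looser threshold. Listed genes without a value were not analysed here.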

Additional observations from a re-analysis of the deposited data

How the results depend on the processing

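No member passed the test under any of the 14 alternatives. Of their 117 differences, 2 changed direction: Myc without MSI2-inducible replicate 1 (-0.00390) and Mxi1 with the mean of probe sets (0.129). Left-out arrays gave -0.00390 to 0.0951 for Myc. Many of the 117 could not change. Single probe sets, no _x_at or _s_at probe sets, the low-value filter and trend and robust fitting kept each member's leading probe set and its difference. The replicate block repeated the differences without control replicate 3. Other probe sets had the opposite sign to the leading one for Mxi1 (0.44), Mxd3 (-0.18), Mxd4 (0.02), Mnt (0.10) and Mlx (-0.05). The count of members without overlap, taken without MSI2-inducible replicate 1, was an alternative chosen after seeing the data. Over all genes 3 were higher and 1 lower. The higher count was 1 with array weights and 0 with the replicate block. The lower count was 0 with the replicate block and with probe sets fitted singly, 2 after dropping low values or after a second quantile normalization, and 3 at an adjusted p of 0.10. Leaving out an array gave 0 to 0 genes higher and 0 to 0 lower; a lone MSI2-inducible array was taken to vary as control arrays do. With the replicate block, control replicate 3 has no partner and adds nothing; only 2 pairs exist, nothing in the labels pairs them, and same-numbered deviations correlated at 0.134 and 0.0989. The network partner median (0.0723) was 0.0599 without _x_at and _s_at probe sets, 0.0475 after dropping low values, 0.0469 after a second quantile normalization, 0.0518 with the replicate block and -0.214 to 0.304 with an array left out. The MYC-repressed median (0.164) was 0.236 with probe sets averaged, 0.318 with probe sets fitted singly, 0.576 after dropping low values, 0.105 with array weights, 0.276 with the replicate block and 0.107 to 0.344 with an array left out. Left-out arrays gave medians of -0.132 to 0.107 for MYC protein turnover, -0.00244 to 0.0908 for MYC-activated genes and -0.424 to 0.0824 for Mondo and MLX targets. The turnover median also turned negative without _x_at and _s_at probe sets (-0.0314), with array weights (-0.0534) and with the replicate block (-0.0282), and the Mondo and MLX median positive with probe sets averaged (0.0538) and with the replicate block (0.0213). The cause was not tested. Low signal limits what the third Mycn and the dimmest Mxd4 probe set can show.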
